A study of Mus musculus with 16 samples.

Results

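Kitl encodes KIT ligand (stem cell factor), which supporting cells of the gonad present to germ cells, and Kit encodes its receptor, a type III receptor tyrosine kinase. Both were followed here through every probe set that the array annotation assigned to exactly one of these genes, which gave 4 probe sets for Kitl and 2 for Kit of 45037 probe sets in all. In the ovary, KIT ligand is made by pre-granulosa and granulosa cells and acts on KIT at the oocyte surface, where it feeds the PI3K and AKT pathway that holds the transcription factor FOXO3 out of the nucleus and so controls when resting oocytes start to grow. The ligand exists as a membrane-bound and a shed form, made by alternative splicing and cleavage, and KIT is also carried by mast cells, melanocytes and blood progenitors. Binding pairs KIT molecules, which phosphorylate each other and recruit adaptors, kinases and phosphatases.

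RNA was measured in 16 single ovaries of newborn mice, 4 for each of 4 genotypes, on Affymetrix mouse expression arrays. Runx1 KO ovaries were Runx1-/f, Foxl2+/+ and Sf1-cre+/Tg, so that the floxed Runx1 allele was open to deletion only in cells that express the Sf1-cre transgene, the somatic cells of the gonad. Foxl2 KO ovaries were Runx1+/f, Foxl2-/- and Sf1-cre+/+, and lacked Foxl2 in every cell. The double knockouts (DKO) were Runx1-/f, Foxl2-/- and Sf1-cre+/Tg. Control ovaries were Runx1+/f, Foxl2+/+ and Sf1-cre+/+. A floxed Runx1 allele was therefore present in all 4 groups, and the animals came from one type of cross on a mixed background. Runx1 KO and DKO ovaries carried Cre while Foxl2 KO and control ovaries did not, so effects of Cre and of Runx1 loss cannot be told apart. By their label, Runx1 KO and DKO ovaries also carried a null Runx1 allele in every cell, unlike Foxl2 KO and control ovaries. Effects of that allele and of deletion in Sf1-cre cells cannot be told apart either. The same holds in whole ovaries for fewer cells of a type and less RNA per cell. Each ovary was a separate biological replicate according to the labels, but litters were not given.

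The annotated start of Kitl lies on chromosome 10 and that of Kit on chromosome 5. The 100 bases just before each start (RefSeq, build GRCm38.p6, plus strand for both, printed 5′ to 3′) are shown because the knocked-out genes encode DNA-binding proteins and the comparison is one of transcript levels. Capitals mark the TATA motif TATAAAA. The Kitl stretch is chr10:100015721-100015820 and the Kit stretch chr5:75574887-75574986.
Kitl: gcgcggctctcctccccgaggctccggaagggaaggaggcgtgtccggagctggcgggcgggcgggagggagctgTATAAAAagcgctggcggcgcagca
Kit: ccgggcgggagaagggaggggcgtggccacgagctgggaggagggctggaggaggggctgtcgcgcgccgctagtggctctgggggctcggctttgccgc
Both stretches were rich in G and C, which made up 72% of the Kitl bases and 76% of the Kit bases. The TATA motif began at base -25 of Kitl and was not found in either of the 2 start windows of Kit. Windows of 250 bases before to 50 bases after a start were searched on both strands, and 5.48% of 32851 such windows held TATAAAA. The forkhead letters TGTTTAC (3.65% of windows) and the RUNX letters TGTGGT (16.8%) and TGCGGT (6.45%) had 0 matches in the windows of Kitl and Kit, which says only that these letters are not in these windows.

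The values are linear intensities scaled by array, and differences were fitted on log2(intensity + 16) with limma across all probe sets, with p-values adjusted by the Benjamini-Hochberg method and a call at an adjusted p under 0.05. Array medians ranged between 134 and 177, and arrays of the same genotype correlated at 0.957 or above. Foxl2, the forkhead factor of pre-granulosa cells, lay at 484 to 890 in Foxl2 KO and 570 to 839 in DKO ovaries, against 2641 to 3585 in Runx1 KO and 2774 to 4241 in control ovaries. Runx1 lay at 932 to 2127 in Runx1 KO and 2356 to 3054 in Foxl2 KO ovaries, and at 2111 to 2370 in DKO ovaries, against 2142 to 2359 in control ovaries. The difference from control in Runx1 was -0.64 ± 0.20 in Runx1 KO ovaries (adjusted p = 0.530, unadjusted p = 0.0048) and -0.0051 ± 0.20 in DKO ovaries (adjusted p = 0.996), although both are labelled with the same Runx1 and Cre alleles. The Runx1 signal, read from a single probe set, therefore did not show in DKO ovaries the loss that their label gives. Their Foxl2 signal did show it, and DKO names these ovaries by their label throughout. Whether the Runx1 probes fall inside the deleted stretch was not examined, and no other Runx1 probe set was read. This signal therefore cannot decide whether Runx1 was deleted in the DKO ovaries. Control replicate 4 stood apart in erythroid transcripts, with a summed intensity of 14161 over 5 markers, against at most 625 in the other 15 ovaries. All 6 Kitl and Kit probe sets lay well above background in every ovary: the lowest of their values was 501, while the 95th percentile of the mean levels of 20 Y-linked probe sets, which have no target in XX ovaries, stood at 84.7.

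Kitl, the ligand, was lower in DKO ovaries and, by 2 of its 4 probe sets, in Foxl2 KO ovaries, while no probe set was called in Runx1 KO ovaries. The probe set with the highest level, 1448117_at, read 1242, 1195, 1565 and 1300 in DKO ovaries. It read 1887, 1651, 1697 and 1114 in Foxl2 KO ovaries and 2816, 2195, 1994 and 3293 in Runx1 KO ovaries. The control ovaries gave 2989, 2974, 3397 and 2177. Every DKO and every Foxl2 KO ovary thus lay below every control ovary, and the Runx1 KO ovaries were split, with replicates 1 and 4 among the controls and replicate 3 below all of them. Mean intensities were 1325 ± 165 in DKO, 1587 ± 332 in Foxl2 KO, 2575 ± 593 in Runx1 KO and 2884 ± 511 in control ovaries (SD, n = 4 each).

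**Figure D1:**
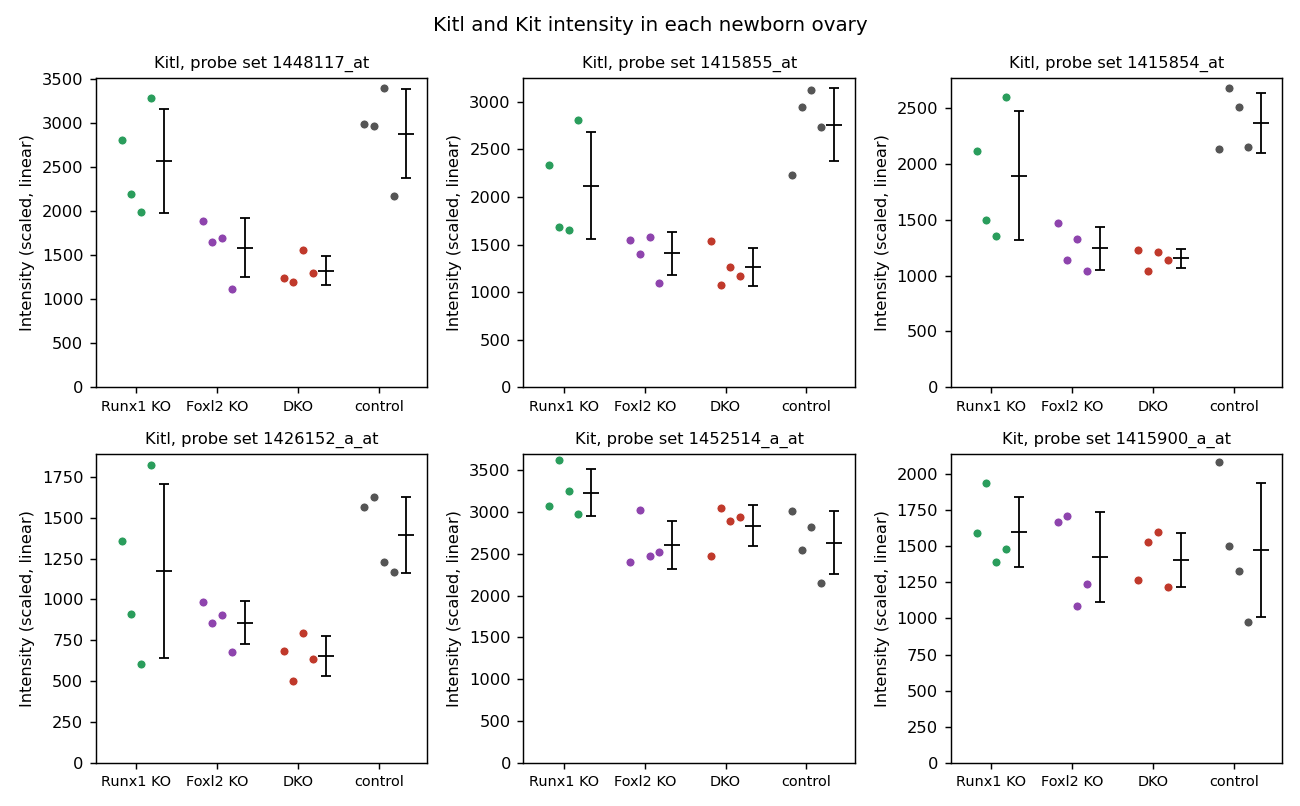
Intensity (linear, scaled by array, axes from 0) of the 4 Kitl and 2 Kit probe sets in each ovary, with 4 ovaries a genotype as points and the mean ± SD as a bar beside them. In all 4 Kitl panels the Foxl2 KO and DKO points lie below every control point, and in both Kit panels the genotypes overlap.

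In DKO ovaries 1448117_at was 2.15-fold lower than in control ovaries, a log2 difference of -1.10 ± 0.20 (SE; adjusted p = 0.00848), with a 95% interval of -1.53 to -0.68. The other Kitl probe sets gave similar differences between DKO and control ovaries. They were -1.12 ± 0.19 for 1415855_at (adjusted p = 0.00548), -1.02 ± 0.19 for 1415854_at (adjusted p = 0.00949) and -1.08 ± 0.27 for 1426152_a_at (adjusted p = 0.0669). So 3 of 4 Kitl probe sets were called lower in DKO ovaries, where 0.531% of all probe sets were called lower, and 1426152_a_at had a difference of like size with a larger error and was called only without Runx1 KO replicate 3 or 4 among the 16 fits that leave out 1 ovary. All 4 had every DKO ovary below every control ovary, which held for 2.43% of all probe sets. The probe sets read transcripts of 1 gene in the same ovaries, and 3 of them were designed from 1 source sequence, so they do not count as independent tests.

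In the other probe sets, too, every DKO and every Foxl2 KO ovary lay below every control ovary. For 1415855_at, intensities were 1538, 1077, 1262 and 1171 in DKO, 1552, 1399, 1583 and 1091 in Foxl2 KO and 2337, 1682, 1649 and 2811 in Runx1 KO ovaries, and 2233, 2943, 3124 and 2735 in control ovaries. For 1415854_at they were 1230, 1038, 1209 and 1143 in DKO, 1473, 1141, 1325 and 1045 in Foxl2 KO and 2123, 1499, 1355 and 2607 in Runx1 KO ovaries, and 2135, 2687, 2509 and 2157 in control ovaries. For 1426152_a_at, which came from another source sequence and had the lowest level, they were 686, 501, 794 and 637 in DKO, 985, 859, 907 and 676 in Foxl2 KO and 1358, 911, 607 and 1823 in Runx1 KO ovaries, and 1566, 1626, 1227 and 1167 in control ovaries. Runx1 KO ovaries spread most in these probe sets, with replicates 1 and 4 high and replicates 2 and 3 low in each of them, and for 1426152_a_at the Runx1 KO SD of 531 exceeded the control SD of 233.

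In Foxl2 KO ovaries the loss of Kitl signal was nearly as large but closer to the threshold. The log2 difference from control was -0.97 ± 0.19 for 1415855_at (adjusted p = 0.0226) and -0.93 ± 0.19 for 1415854_at (adjusted p = 0.0266), and these 2 of 4 probe sets were called lower, where 0.446% of all probe sets were. For 1448117_at the difference was -0.86 ± 0.20 (adjusted p = 0.0559), just short of a call, and for 1426152_a_at it was -0.69 ± 0.27 (adjusted p = 0.385). All 4 probe sets had every Foxl2 KO ovary below every control ovary, which held for 1.94% of all probe sets. Of the 16 fits with 1 ovary removed, 5 lost the call of 1415855_at and 5 that of 1415854_at. These were Foxl2 KO replicate 2 or 4 or control replicate 2, 3 or 4 for 1415855_at (adjusted p up to 0.0887), and Foxl2 KO replicate 2, 3 or 4 or control replicate 2 or 3 for 1415854_at (adjusted p up to 0.101). The 1448117_at difference passed without control replicate 4 (-0.99, adjusted p = 0.0375) or without Runx1 KO replicate 4. With 1 value a gene in place of 1 a probe set, Kitl passed in Foxl2 KO ovaries, with an adjusted p of 0.0367 for its highest probe set and 0.0335 for the mean of its probe sets.

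In Runx1 KO ovaries 0 of 4 Kitl probe sets were called, where 0.0466% of all probe sets were called lower, and 0 of 4 had an unadjusted p under 0.05 in limma. The log2 differences from control were -0.17 ± 0.20, -0.40 ± 0.19, -0.36 ± 0.19 and -0.35 ± 0.27 for 1448117_at, 1415855_at, 1415854_at and 1426152_a_at, with adjusted p between 0.818 and 0.934. In 0 of 4 did every Runx1 KO ovary lie below every control ovary, as 1.33% of all probe sets did. Their 95% intervals reached down to -0.60, -0.81, -0.76 and -0.91, so a moderate loss of Kitl in Runx1 KO ovaries was not detectable with these errors. The 3 comparisons with control share the same 4 control ovaries, and their values are not independent of each other.

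The mean level of Kitl fell in the same order in all 4 probe sets, DKO lowest, then Foxl2 KO, then Runx1 KO, with control highest, but no neighbours in that order passed the adjusted test. Between DKO and Foxl2 KO ovaries the differences were -0.24 ± 0.20, -0.15 ± 0.19, -0.10 ± 0.19 and -0.39 ± 0.27 in the same order of probe sets (adjusted p = 1.00 each), and the groups overlapped in all 4. That comparison called 0.0222% of all probe sets lower, and 1.84% had every DKO ovary below every Foxl2 KO ovary. It rests on the Runx1 label of the DKO ovaries, which the single probe set read for Runx1 did not bear out. For 1448117_at the 95% interval of the DKO minus Foxl2 KO difference ran between -0.66 and 0.19. Between Foxl2 KO and Runx1 KO ovaries the differences were -0.69 ± 0.20, -0.56 ± 0.19, -0.56 ± 0.19 and -0.35 ± 0.27 (adjusted p between 0.197 and 0.896). None was called, where 0.417% of all probe sets were called lower, and the unadjusted p was under 0.05 for 3 of 4. Foxl2 KO ovaries all lay below all Runx1 KO ovaries in 2 of the 4 probe sets, as in 2.16% of all probe sets. The difference between the single knockouts thus had an unadjusted limma p under 0.05 in 3 of the 4 probe sets but passed the adjusted test in none.

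DKO ovaries were also compared with Runx1 KO ovaries, both of which carried Cre. The DKO minus Runx1 KO difference in Kitl was -0.93 ± 0.20 for 1448117_at (adjusted p = 0.0518), -0.72 ± 0.19 for 1415855_at (adjusted p = 0.155), -0.66 ± 0.19 for 1415854_at (adjusted p = 0.198) and -0.73 ± 0.27 for 1426152_a_at (adjusted p = 0.435). All 4 had an unadjusted p under 0.05 in limma but 0 of 4 were called, where 0.295% of all probe sets were called lower. In 3 of 4 probe sets each DKO ovary lay below each Runx1 KO ovary, as in 2.2% of all probe sets. The 1448117_at difference passed without Foxl2 KO replicate 4 or without control replicate 4, with an adjusted p of 0.0313 at the lowest over the 16 fits. The interaction, which rests on the same label and asks whether the loss in DKO ovaries departs from the sum of the single losses on the log2 scale, was -0.07 ± 0.28, 0.25 ± 0.27, 0.26 ± 0.27 and -0.04 ± 0.38 for the 4 probe sets (adjusted p at or above 0.998), with 0.00222% of all probe sets called. For 1448117_at its interval of -0.67 to 0.53 leaves room for a departure in either direction.

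**Figure D2:**
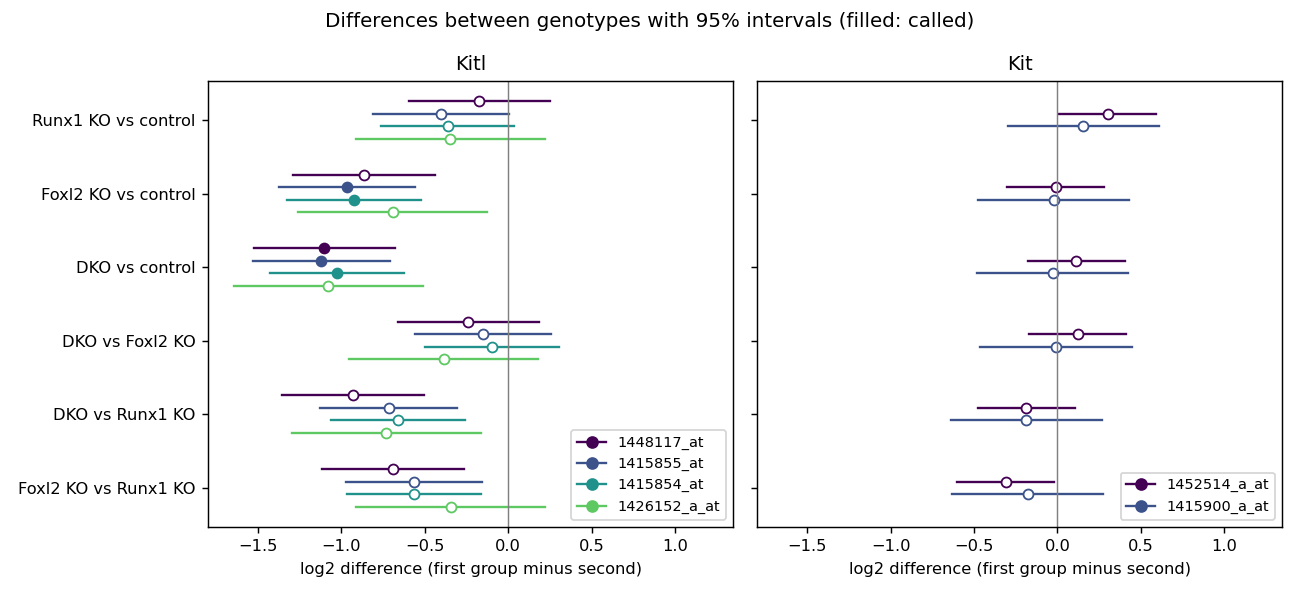
Log2 difference (horizontal axis, first group minus second) of each Kitl and Kit probe set in 6 comparisons, with the 95% interval as a line and a filled point for an adjusted p under 0.05. The filled points are 3 Kitl probe sets in DKO vs control and 2 in Foxl2 KO vs control, and none is for Kit.

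Kit, the receptor, showed no called difference in any comparison. Against control, 0 of 2 probe sets were called in DKO, Foxl2 KO or Runx1 KO ovaries, where 1.23%, 0.904% and 0.0577% of all probe sets were called in either direction. Between the knockouts 0 of 2 were called as well, where DKO against Foxl2 KO ovaries called 0.0311% of all probe sets, DKO against Runx1 KO ovaries 0.513% and Foxl2 KO against Runx1 KO ovaries 0.764%. The probe set with the higher level, 1452514_a_at, read 2479, 3043, 2889 and 2942 in DKO ovaries. It read 2397, 3029, 2479 and 2525 in Foxl2 KO ovaries and 3076, 3619, 3254 and 2976 in Runx1 KO ovaries, against 3010, 2551, 2823 and 2148 in control ovaries. The genotypes overlapped, and the 3 highest values came from Runx1 KO ovaries. Mean intensities were 2838 ± 248 in DKO, 2608 ± 286 in Foxl2 KO, 3231 ± 283 in Runx1 KO and 2633 ± 375 in control ovaries (SD, n = 4 each). The second probe set, 1415900_a_at, read 1266, 1528, 1597 and 1221 in DKO, 1669, 1710, 1085 and 1242 in Foxl2 KO and 1590, 1937, 1389 and 1482 in Runx1 KO ovaries, against 2083, 1504, 1331 and 978 in control ovaries. Both its highest and its lowest value came from control ovaries, replicates 1 and 4, so this probe set was the noisier of the pair.

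The log2 difference of 1452514_a_at was 0.11 ± 0.14 in DKO ovaries (adjusted p = 0.850, 95% interval -0.18 to 0.41) and -0.01 ± 0.14 in Foxl2 KO ovaries (adjusted p = 0.994, 95% interval -0.30 to 0.28), both against control. These intervals hold no change of Kit as large as that of Kitl in the same ovaries, but do not show that Kit was the same. In Runx1 KO ovaries the difference was 0.30 ± 0.14 (adjusted p = 0.798, unadjusted p = 0.0437), an intensity 123% of that in control ovaries. Against Runx1 KO ovaries, the difference was -0.31 ± 0.14 in Foxl2 KO ovaries (adjusted p = 0.609, unadjusted p = 0.0387) and -0.19 ± 0.14 in DKO ovaries (adjusted p = 0.865). For 1415900_a_at the differences from control were -0.03 ± 0.21 in DKO ovaries, -0.02 ± 0.21 in Foxl2 KO ovaries and 0.16 ± 0.21 in Runx1 KO ovaries (adjusted p between 0.946 and 0.990). Between DKO and Foxl2 KO ovaries Kit differed by 0.12 ± 0.14 and -0.01 ± 0.21 in the 2 probe sets (adjusted p = 1.00 each), and the interaction was -0.18 ± 0.19 and -0.16 ± 0.30 (adjusted p = 0.998 each).

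Ligand and receptor were next set against each other within each ovary, as log2 Kitl (1448117_at) minus log2 Kit (1452514_a_at). The zero of this measure has no meaning, since probe sets differ in how brightly they read, and only differences between genotypes were used. It was -0.99, -1.34, -0.88 and -1.17 in DKO, -0.34, -0.87, -0.54 and -1.17 in Foxl2 KO and -0.13, -0.72, -0.70 and 0.15 in Runx1 KO ovaries, against -0.01, 0.22, 0.27 and 0.02 in control ovaries. All DKO and all Foxl2 KO ovaries lay below all control ovaries, and of the Runx1 KO ovaries replicate 4 lay among the controls. The mean was -1.09 ± 0.20 in DKO and 0.12 ± 0.14 in control ovaries (SD, n = 4 each), a difference of -1.22 (exact two-sided permutation test, p = 0.0286, adjusted over the 3 comparisons p = 0.0429). The Foxl2 KO mean of -0.73 ± 0.36 differed from control by -0.85 (exact permutation test, p = 0.0286, adjusted p = 0.0429), where 0.0286 is the smallest p that 4 ovaries against 4 can give. The Runx1 KO mean of -0.35 ± 0.43 differed by -0.47 (exact permutation test, p = 0.114, adjusted p = 0.114). Leaving out any 1 control ovary took the adjusted p to 0.0857 for both DKO and Foxl2 KO ovaries, with differences of -1.26 to -1.17 and -0.90 to -0.81. All DKO and all Foxl2 KO ovaries still lay below the control ovaries left. The higher p thus came with fewer possible splits and not with overlap, and it does not measure a weaker separation. Without Runx1 KO replicate 4 the Runx1 KO difference was -0.64 (exact permutation test of 3 ovaries against 4, p = 0.0286, adjusted p = 0.0286). That ovary was the only Runx1 KO ovary not below every control ovary, so leaving it out separates the groups by construction. This p is the smallest that 3 ovaries against 4 can give and is not support for a Runx1 KO difference.

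**Figure D3:**
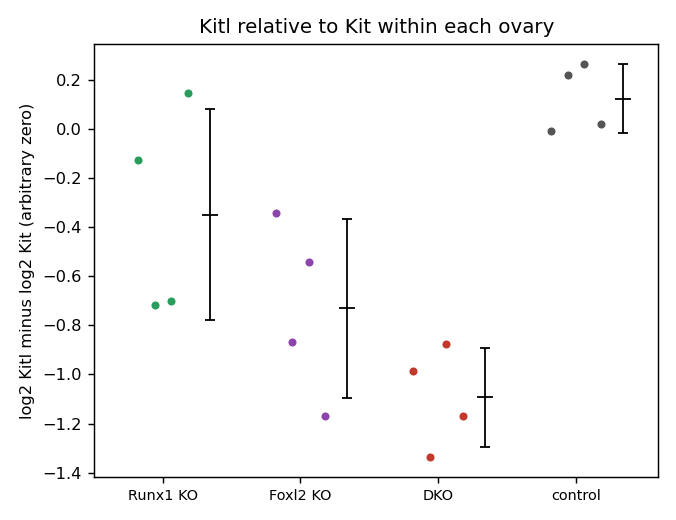
Log2 Kitl minus log2 Kit (vertical axis, arbitrary zero) in each of the 16 ovaries, as points by genotype with the mean ± SD beside them. DKO ovaries lie between -1.34 and -0.88 and Foxl2 KO ovaries between -1.17 and -0.34, all under the lowest control ovary at -0.01.

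Genes that act with the pair were then counted. Of 66 genes of the KIT pathway and its relatives, 56 had a probe set of their own in the table used here, and 1 was called in DKO ovaries, where 1.23% of all probe sets were called, and 0 in Foxl2 KO or Runx1 KO ovaries, where 0.904% and 0.0577% were. The 1 was Pdgfc, a ligand of the related PDGF receptor alpha, which was higher in DKO ovaries by 1.18 (adjusted p = 0.0344). Its intensities were 2269 to 3827 in DKO ovaries against 690 to 1601 in control ovaries. Of the 16 fits with 1 ovary removed, 5 lost this call, those without DKO replicate 1, 2 or 3 or control replicate 1 or 4 (adjusted p up to 0.122). A dimmer Pdgfc probe set, 1449351_s_at, differed by 1.09 in DKO ovaries and was not called (adjusted p = 0.0533). Pdgfra, its receptor, differed by 0.25 in DKO ovaries (adjusted p = 0.816). Among the proteases that shed the ligand, Adam17 had the smaller p, with a difference of -0.49 in DKO ovaries (adjusted p = 0.338).

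Downstream of the receptor, 44 of 53 genes had a probe set of their own, and 0 were called in any of the 3 comparisons with control, which is near the shares of all probe sets just given. An unadjusted p under 0.05 in limma was found for 5 in DKO ovaries, 1 in Foxl2 KO ovaries and 2 in Runx1 KO ovaries, where 10.4%, 9.33% and 6.11% of all probe sets had one. Their median log2 difference was -0.06 in DKO ovaries, 0.01 in Foxl2 KO ovaries and 0.03 in Runx1 KO ovaries, beside 0.04, 0.06 and 0.03 over all probe sets. Of the adaptors and kinases, Gab1, a docking protein for PI3K, had a difference of 0.51 in DKO ovaries (adjusted p = 0.125) and Map2k2, a kinase of the MAP kinase arm, one of -0.50 in Runx1 KO ovaries (adjusted p = 0.586). Of the negative regulators, Dok1 had a difference of -1.18 in Runx1 KO ovaries (adjusted p = 0.405) at intensities of 12.5 to 58.4, under the Y-linked background, against 72.1 to 178 in control ovaries.

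In the PI3K arm, Foxo3 itself, the factor that keeps oocytes at rest, read 4587 to 5849 in DKO, 4705 to 5325 in Foxl2 KO and 4681 to 5810 in Runx1 KO ovaries, against 5104 to 6276 in control ovaries. Its differences were -0.12, -0.18 and -0.16 (adjusted p between 0.745 and 0.899), and the genotypes overlapped. Its dimmer probe sets gave -0.09, -0.05 and -0.15 (1434832_at) and, in the other direction, 0.26, 0.18 and 0.18 (1450236_at), none of them called. Cdkn1b, a cell cycle inhibitor that also restrains oocyte growth, had the smallest p of this arm, with a difference of -0.80 in DKO ovaries (adjusted p = 0.0582) for the probe set that stood for it. Its intensities there were 2113 to 3820, against 3701 to 6182 in control ovaries, so that the groups overlapped. A dimmer probe set of Cdkn1b, 1419497_at, chosen for mention after its values were seen, was called lower in DKO ovaries, with a difference of -1.02 (adjusted p = 0.00127). Gdf9, which oocytes send back to granulosa cells, read 181 to 325 in DKO, 200 to 930 in Foxl2 KO and 317 to 1726 in Runx1 KO ovaries, against 174 to 541 in control ovaries. Its difference of 1.22 in Runx1 KO ovaries was not called (adjusted p = 0.752).

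**Figure D4:**
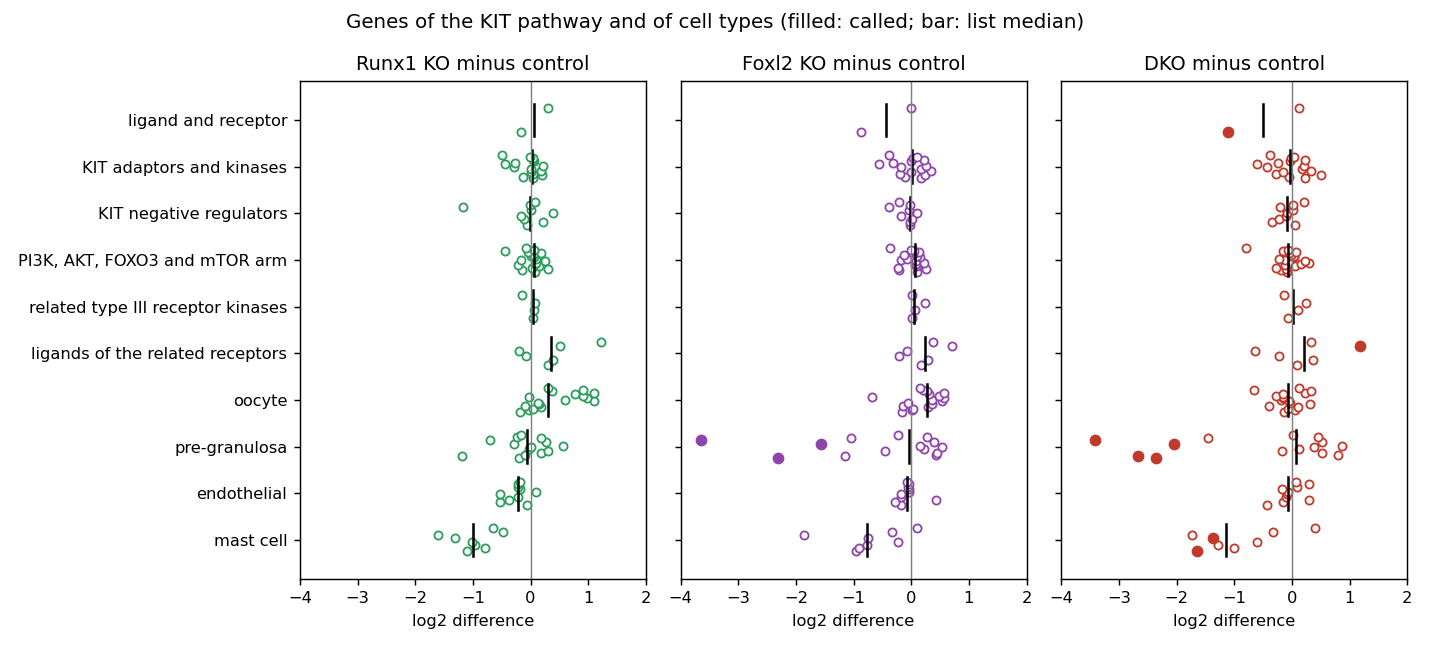
Log2 difference from control (horizontal axis) of each measured gene of the KIT pathway lists, without the shedding proteases, and of 4 cell type lists. Each knockout genotype is shown, with a filled point for an adjusted p under 0.05 and a bar at each list's median. Outside the pre-granulosa and mast cell lists the filled points are Kitl and Pdgfc in DKO ovaries.

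Markers of the cells that carry the pair were read beside it. Of 18 oocyte markers, 17 had a probe set of their own and 0 were called in any comparison with control, where at most 1.23% of all probe sets were, so that a count of 0 is near the background. They had median differences of -0.06 in DKO ovaries, 0.27 in Foxl2 KO ovaries and 0.31 in Runx1 KO ovaries. Without control replicate 4 these medians were -0.25, 0.13 and 0.11 in the same order. Ddx4, an RNA helicase gene of germ cells, had differences of -0.14, -0.16 and -0.18 in DKO, Foxl2 KO and Runx1 KO ovaries, and the RNA-binding protein gene Dazl had 0.06, 0.02 and -0.03. Of 15 pre-granulosa markers, 14 were measured. In DKO ovaries 4 were called lower, where 0.531% of all probe sets were, with log2 differences of -2.37 for Foxl2, -2.67 for the activin antagonist Fst, -2.04 for the oestrogen receptor gene Esr2 and -3.42 for the nuclear receptor gene Nr5a2. In Foxl2 KO ovaries 3 of these were called, where 0.446% of all probe sets were, with -2.32 for Foxl2, -1.56 for Esr2 and -3.64 for Nr5a2, and in Runx1 KO ovaries 0 were. Mean intensities of Esr2 (22.2 in DKO and 36.6 in Foxl2 KO ovaries) and Nr5a2 (68.4 in DKO and 55.7 in Foxl2 KO ovaries) lay under the Y-linked background, so their losses are sized only as far as that background allows. The medians of the pre-granulosa list stood near 0, at 0.07 in DKO ovaries, -0.04 in Foxl2 KO ovaries and -0.06 in Runx1 KO ovaries.

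Markers of Sertoli cells, the supporting cells of the testis, were in part higher in the ovaries where Kitl was lower. Of 12, all measured and 11 above the Y-linked background, 5 were called higher in DKO ovaries and 5 in Foxl2 KO ovaries, where 0.697% and 0.457% of all probe sets were, and 0 were called in Runx1 KO ovaries. In both, Sox9, the factor that sets the Sertoli cell fate, was higher, by 1.41 in DKO and 1.46 in Foxl2 KO ovaries. So were Dmrt1, a testis transcription factor gene, by 2.00 and 1.56, Dhh, a hedgehog ligand gene, by 2.52 and 2.30, and Cst9 by 1.70 and 1.51. Fgf9, a growth factor gene, was called in DKO ovaries alone (1.02) and Hsd17b3, a steroid dehydrogenase gene, in Foxl2 KO ovaries alone (2.33), and these differences between genotypes were not tested. In Runx1 KO ovaries Fgf9 was not called, but it had the smallest unadjusted p of the list there (5.07e-05 in limma). Amh, a hormone gene that defines Sertoli cells, lay under the Y-linked background in all ovaries. The summed intensity of the list was 5573 to 6210 in DKO, 3398 to 5818 in Foxl2 KO and 3863 to 4559 in Runx1 KO ovaries. It was 3954 to 5356 in control ovaries, so that by this sum only DKO ovaries lay wholly above the controls. By the mean log2 score of the list, DKO (0.27 to 0.47) and Foxl2 KO ovaries (0.12 to 0.61) both lay wholly above the controls (-0.65 to -0.32). Runx1 KO ovaries (-0.37 to -0.14) overlapped the controls in that score. The sum thus does not set DKO apart from Foxl2 KO ovaries. The median difference of the list was 0.74 in DKO ovaries, 0.44 in Foxl2 KO ovaries and 0.19 in Runx1 KO ovaries. In DKO and in Foxl2 KO ovaries 3 of the 12 had a difference below 0, down to -0.64 and -0.86, and 0 were called lower. Of 5 measured steroidogenic markers, Hsd3b1, which encodes an enzyme of steroid synthesis, was called lower in every knockout genotype, with -2.19 in DKO ovaries, -1.86 in Foxl2 KO ovaries and -1.53 in Runx1 KO ovaries. The shares of all probe sets called lower were 0.531%, 0.446% and 0.0466% in that order. These Sertoli and Hsd3b1 calls held with any 1 ovary left out (adjusted p up to 0.0396), a check added after the data were seen. The part of these cell types in the Kitl values was not tested.

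Cells other than oocytes also carry KIT. Mast cell markers, 8 of 9 measured and 5 of them above the Y-linked background, had median differences of -1.15 in DKO ovaries, -0.76 in Foxl2 KO ovaries and -0.99 in Runx1 KO ovaries. Differences were below 0 for 7, 7 and 8 of the 8 in that order. The exception was Hdc, with 0.41 in DKO and 0.10 in Foxl2 KO ovaries. It read 324 to 563 in DKO ovaries, against 236 to 377 in control ovaries. The summed intensity of the 8 markers was 995 to 1504 in DKO, 866 to 2268 in Foxl2 KO and 591 to 1899 in Runx1 KO ovaries, against 1759 to 3609 in control ovaries. In DKO ovaries 2 of them were called lower, where 0.531% of all probe sets were. The protease gene Cpa3 differed by -1.65 (adjusted p = 0.0478) but lost its call in 10 of 16 fits that left out 1 ovary (adjusted p up to 0.148), namely Runx1 KO replicate 3 or 4, Foxl2 KO replicate 1 or 3, DKO replicate 2, 3 or 4, or control replicate 2, 3 or 4. The tryptase gene Tpsab1 differed by -1.36 (adjusted p = 0.0149) at levels under the Y-linked background, and lost its call without DKO replicate 4 or control replicate 1, 2 or 3 (adjusted p up to 0.0602). The receptor genes Ms4a2 and Fcer1a, which define mast cells, lay under that background in DKO, Foxl2 KO and Runx1 KO ovaries. In control ovaries Ms4a2 read 29.6, 93.1, 43.9 and 479, so that replicates 1 and 3 lay under it as well. The highest value was that of control replicate 4. Without control replicate 4 only Tpsab1 was called, in all 3 knockout groups. Melanocyte markers other than Mitf lay under the same background in every ovary, and Mitf, a transcription factor also active outside melanocytes, was higher in DKO ovaries by 0.83 (adjusted p = 0.00828) at its brightest probe set and by 0.34 (adjusted p = 0.509) at another. Of 10 endothelial, 9 macrophage and 7 surface epithelium markers 0 were called, near the background shares of at most 1.23%, and of 8 stroma and smooth muscle markers only Mfap5, a matrix protein gene, was, with -1.51 in DKO ovaries. The part of mast cells in the Kit values was not tested.

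Within genotypes, ovaries with more Kit did not clearly have more of anything examined. After each group mean was removed, Kit and Kitl had a Pearson r of 0.12 (permutation p = 0.700) and a Spearman rho of -0.03 (permutation p = 0.934) over 16 ovaries, and r was -0.26 without the 2 ovaries farthest from the median of Kitl. Kit and the mean oocyte marker score had r = 0.43 (permutation p = 0.148) and rho = 0.31 (permutation p = 0.306), with r = 0.35 without the 2 farthest ovaries. Kitl and the pre-granulosa score, computed without Foxl2, had r = 0.59 (permutation p = 0.0472) and rho = 0.56 (permutation p = 0.0520). That r fell to 0.27 without Foxl2 KO replicate 4 and control replicate 4, so the relation rests on those ovaries. Kitl and the oocyte score had r = -0.43 (permutation p = 0.196) and rho = -0.45 (permutation p = 0.156), with r = -0.23 without the 2 farthest. After adjustment over these 4 relations, p was 0.189 or higher for every r and 0.208 or higher for every rho.

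**Figure D5:**
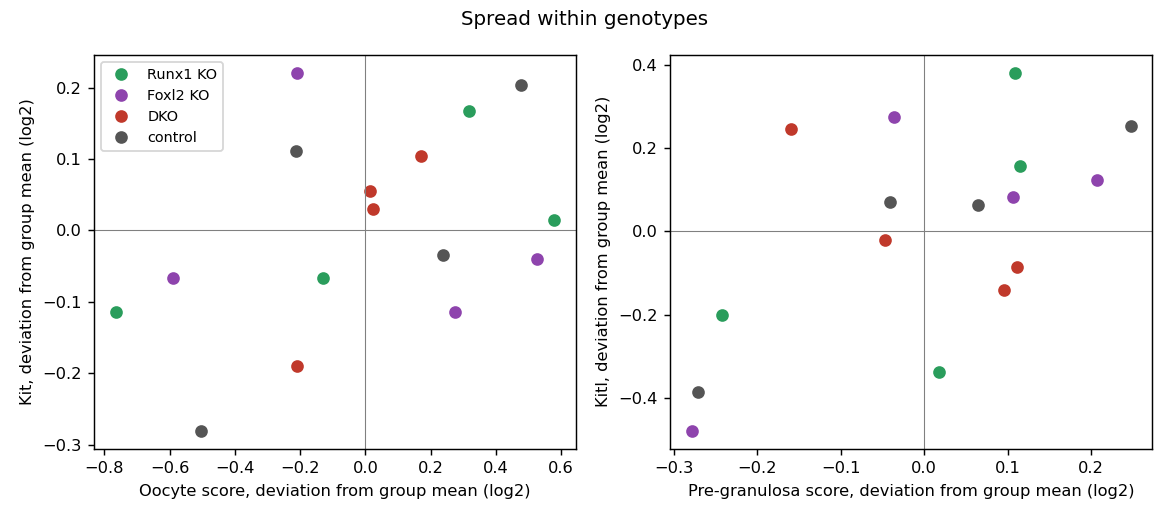
Deviation of each ovary from its genotype's mean (log2), with Kit against the oocyte score on the left and Kitl against the pre-granulosa score on the right, 16 ovaries coloured by genotype. On the right, the Foxl2 KO and control ovaries at the lower left are the 2 on which the r of 0.59 rests.

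The genes whose levels followed Kitl most closely over the 16 ovaries were sought among 10348 genes, as a description that mixes differences between and within genotypes. They were Sdc4, a cell surface proteoglycan gene (r = 0.94), Speer4a (r = 0.94), Rnd2 (r = 0.92), the matrix protein gene Thbs1 (r = 0.92) and Armcx5 (r = 0.91). Of these, Sdc4, Speer4a, Thbs1 and Armcx5 were called lower in both DKO and Foxl2 KO ovaries, where 0.531% and 0.446% of all probe sets were. The differences were -3.56 and -2.97 for Thbs1, and Rnd2 was called in neither. Kitl was itself lower in these ovaries, so genes chosen for following it were likely to be lower there too, and their calls are not separate support. For Kit the closest were Mrln (r = 0.88), Cnpy1 (r = 0.86), the deacetylase gene Hdac6 (r = 0.83), Spata5 (r = 0.82) and Stard7 (r = 0.81), none of which was called in any knockout group against control.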

How the data were processed

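Total RNA of each ovary was amplified and hybridised to 1 array. The deposited intensity values were summarised per probe set by the authors with Affymetrix Expression Console 1.2 (submitters' processing notes). They are linear and share 1 mean after trimming 2% at each end, and the algorithm is not given in the sources used here; the study's own tests used other log2 values, which were not used. Of 45101 probe sets, 64 controls were left out, and 34945 of the rest matched 1 gene, 932 several and 9160 none. All value columns matched a sample.

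An offset of 16 was added before log2. One limma 3.58.1 model (R 4.3.3) with 4 group means was fitted to 16 arrays, with moderated standard errors, two-sided tests and Benjamini-Hochberg adjustment over all 45037 probe sets in each of 7 contrasts. The fit was tested on simulated data. A listed gene was read by its probe set of highest mean level. Named were each list's called members, or the one of smallest p, and the 5 genes best correlated with Kitl and with Kit. Correlations used 100000 permutations within genotypes. Alternatives covered offset, floor, scaling, filtering, probe set summary, prior, weights, block, the groups fitted, the methods' analysis of variance and each left-out ovary. The list calls without control replicate 4 or any other 1 ovary and the Y-linked background level were added after the data were seen. Kitl, Kit and the lists were chosen with earlier results of these data known. The number of arrays, 4 a genotype, limits the precision.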

Additional observations from a re-analysis of the deposited data

How the results depend on the processing

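The 1448117_at loss of Kitl in DKO against control ovaries kept its direction and its call under all 12 other settings and in all 16 fits that left out 1 ovary (adjusted p up to 0.0342), and the differences from control in 1448117_at of Runx1 KO ovaries and in 1452514_a_at of Runx1 KO and DKO ovaries stayed uncalled in the same direction. What the processing moved was the Foxl2 KO loss, which stands close to the threshold. For 1448117_at it passed with equal array medians (-0.94, adjusted p = 0.0345), an offset of 50 (-0.85, adjusted p = 0.0361), array weights (-0.91, adjusted p = 0.0212), the mean of the probe sets of a gene (-0.86, adjusted p = 0.0335) and, with the value still -0.86, a trended robust prior, 1 probe set a gene, probe sets above the median level and the methods' analysis of variance, which uses an unadjusted p under 0.05 and a fold of 1.5. Its DKO minus Runx1 KO difference passed with an offset of 50 (-0.91) or array weights (-0.93) and, at -0.93, with the prior, 1 probe set a gene, the level filter and the methods' analysis of variance, which also passed its Foxl2 KO minus Runx1 KO difference (-0.69). Over fits that left out 1 ovary these differences ranged between -0.99 and -0.70 for Foxl2 KO minus control and between -1.04 and -0.80 for DKO minus Runx1 KO. Kitl minus Kit ranged between -1.29 and -1.13 for DKO, -0.98 and -0.71 for Foxl2 KO and -0.64 and -0.35 for Runx1 KO against control. The 1426152_a_at loss in DKO ovaries passed with equal medians, the prior, array weights, the level filter, the analysis of variance and a fit of only the groups compared, which lost the Foxl2 KO call of 1415855_at (adjusted p = 0.0518). Pdgfc and Tpsab1 lost their DKO calls in that fit and with a floor of 16, Cpa3 with the floor. The cause of these changes was not tested.

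Only differences near 0 turned direction. With quantile normalization, Foxl2 KO minus control was 0.015 for 1452514_a_at, and for 1415900_a_at DKO minus control was 0.0075 and DKO minus Foxl2 KO 0.012. DKO minus Foxl2 KO for 1415900_a_at was also 0.033 with equal medians and 0.013 with array weights. The Kitl interaction was 0.018 for 1426152_a_at with equal medians and 0.10 for the mean of the probe sets. Leaving out 1 ovary, 1452514_a_at ranged between -0.10 and 0.059 for Foxl2 KO minus control, and 1415900_a_at between -0.21 and 0.15 for DKO minus control, -0.20 and 0.16 for Foxl2 KO minus control, -0.021 and 0.34 for Runx1 KO minus control, -0.13 and 0.088 for DKO minus Foxl2 KO and -0.35 and 0.014 for the interaction. The interaction ranged between -0.23 and 0.062 for 1448117_at and between -0.31 and 0.21 for 1426152_a_at, and the r of Kit and Kitl between -0.22 and 0.26.

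Replicate numbers marked no pairs: of 24 pairs of ovaries with the same number, 1 correlated above 0.1 (median -0.01). With the replicate block, 4 probe sets were called in DKO against Foxl2 KO and 0 for the interaction, Kitl in DKO stayed called for 1448117_at (adjusted p = 0.0247), and the Foxl2 KO adjusted p was 0.0647 for 1415855_at and 0.0697 for 1415854_at, both then uncalled, as were Pdgfc and Cpa3 in DKO ovaries.

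Counts of called probe sets moved more than single values. Of 26 in Runx1 KO against control, 8 were counted in a fit of only those groups, 13 with the mean of the probe sets and 1113 by the methods' analysis of variance. The 407 in Foxl2 KO against control became 237, 270 and 2018 in that order, and the 553 in DKO against control became 2259 by the analysis of variance. The 14 in DKO against Foxl2 KO became 22 with an offset of 50, 4 with only those groups, 24 with array weights, 8 with the mean and 958 by the analysis of variance. The 231 in DKO against Runx1 KO became 142 with only those groups, 347 with array weights and 1612 by the analysis of variance, and the 344 in Foxl2 KO against Runx1 KO became 177, 214 with the mean and 1600. The 1 interaction became 3 with equal medians, array weights or the mean, 4 with quantile normalization, 5 with an offset of 50, 0 with a floor of 16, 2 with the prior or 1 probe set a gene and 1396 by the analysis of variance. Leaving out 1 ovary, the counts ranged from 16 to 26 in Runx1 KO and from 250 to 414 in Foxl2 KO against control, 4 to 18 in DKO against Foxl2 KO, 147 to 266 in DKO against Runx1 KO, 218 to 366 in Foxl2 KO against Runx1 KO and 0 to 4 for the interaction. With equal medians the Foxl2 KO calls were 236 lower and 167 higher, against 201 and 206. With 4 ovaries a genotype and intensities as the only record, losses smaller than about the width of these intervals were not detectable.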
